A study of Saccharomyces cerevisiae with 12 samples.

Results

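The genes described here are 34 genes of the mating pheromone response of *Saccharomyces cerevisiae*, taken from the 5449 genes of the arrays that could be named. They were listed by symbol, and each was read from the 1 probe set that the probe table pairs with that gene and no other. Of the 34 genes, 17 encode parts of the signalling pathway, from the G protein to the transcription factor and the polarity and arrest proteins it acts on, and 17 are targets that pheromone is known to induce, for fusion of cells and nuclei. All 34 had a probe set, and their lowest signal on any array was 295.7, against 18.4 for the 95th percentile of the Tag control probe sets, which have no yeast target.

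Polyadenylated RNA was measured on 12 arrays from 4 strains of the W303a background, with 3 biological replicates per strain. The strains were wild-type, *top1Δ* (*top1::natr*), in which the gene of topoisomerase I is deleted, *top2ts* (*top2-1*), which carries a temperature-sensitive allele of the gene of topoisomerase II, and *top1Δtop2ts*, which carries both. Every culture, wild-type included, was held in YPD with α-factor for 90 min at 25°C and then for 90 min at 37°C, where Top2p of the *ts* strains loses its function. All strains were therefore treated with pheromone throughout, and cells without α-factor were not analysed here, so the values are levels during a sustained pheromone response and not inductions.

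In haploid **a** cells α-factor binds the receptor Ste2p, which releases the Gβγ dimer of Ste4p and Ste18p from the Gα subunit Gpa1p. The dimer acts through the kinase Ste20p and the scaffold Ste5p on a cascade of Ste11p, Ste7p and the MAP kinases Fus3p and Kss1p. Fus3p relieves the repression of the transcription factor Ste12p and acts through Far1p to hold the cell in G1 and to direct growth towards a mate. Ste12p induces genes for agglutination, cell fusion and nuclear fusion, and several genes of the pathway itself, among them *FUS3*, *FAR1*, *SST2*, *MSG5* and *STE12*.

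The labels were checked on the targeted genes and on mating type. *TOP1* gave signals of 1195, 731 and 1196 in wild-type and at most 9.50 on any array of *top1Δ* and *top1Δtop2ts*, whereas *TOP2*, whose mutant allele is still transcribed, does not test its label. The 7 **a**-specific genes had summed signals of 54045 to 64754 in wild-type, and those of the 4 α-specific genes came to 765 to 1396, with *MF(ALPHA)1*, the gene of α-factor itself, at 26.2, 4.60 and 30.5. The 3 arrays of a strain differed in brightness. The mean log2 signal of 42 spike-in probe sets was 8.46 to 8.72 on the 4 arrays of replicate 2 and 9.32 to 9.59 on the other 8. The median gene also moved between strains, by -0.17 in *top1Δ*, -0.22 in *top2ts* and -0.54 in *top1Δtop2ts* on the log2 scale against wild-type, and changes of single genes are to be read against these shifts. In RNA from whole cultures, fewer cells of a type and less RNA per cell cannot be told apart.

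Changes below are differences of mean log2 signal between strains on the deposited scale, each tested with limma and adjusted over all 5449 genes. Because limma estimated the same variance for every gene, each change of a mutant had the same standard error of 0.39. Beside it stand a fit that takes the replicate number as a block, called the replicate block, and a fit of arrays set to equal medians. Probe sets differ in brightness for the same amount of RNA, so an order of probe sets by signal is not an order of transcript levels.

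In *top2ts*, nearly all induced targets had higher mean signals than in wild-type, whereas 10 of the 17 signalling genes had lower ones on the deposited scale. Of the 17 targets, 16 had a positive change, and all 17 lay above the change of the median gene. Their median change was 0.83, against -0.05 for the 17 signalling genes, of which 7 were positive, and -0.22 for all genes. Of the signalling genes 12 lay above the median gene, and 12 were positive with equal medians. On the deposited scale, limma called 2 of the 34 genes higher and 0 lower, against a background of 0.330% of all genes called higher and 0.532% called lower. An unadjusted p under 0.05 was found for 11 of the 34 genes and for 240 of all 5449. With the replicate block 15 were called higher and 1 lower, against 1.12% and 9.08% of all genes, so that 15 of the 61 genes called higher on the whole array belonged to these 34. With equal medians 16 were called higher and 1 lower, against 3.34% and 2.77%. The 3 *top2ts* arrays lay above all 3 wild-type arrays for 12 of the 34 genes, namely 11 targets and *FAR1*, and for 0.844% of all genes.

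**Figure D1:**
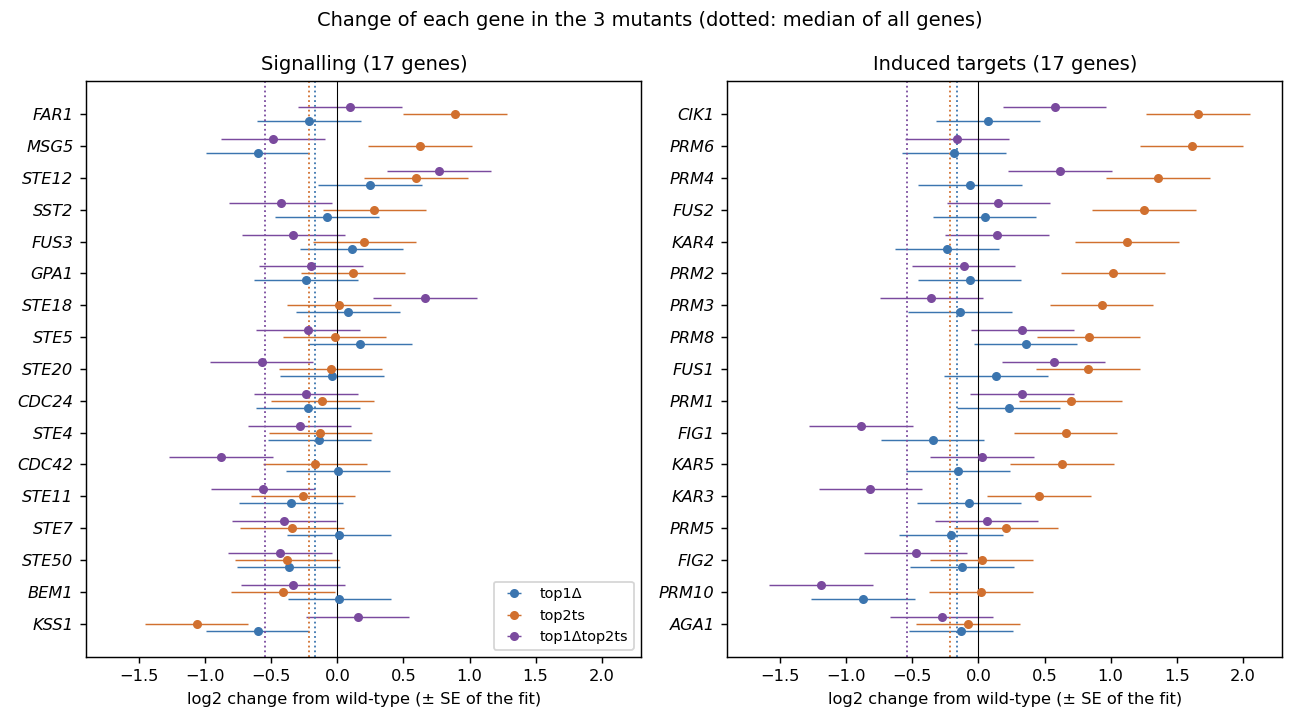
Log2 change of each of the 34 genes in *top1Δ*, *top2ts* and *top1Δtop2ts* against wild-type, in 1 panel for the 17 signalling genes and 1 for the 17 induced targets, each ordered by the change in *top2ts*. Bars are ± SE of the fit and dotted lines the median of all genes. In *top2ts* 16 of 17 targets lie above 0, while the signalling genes scatter around a median of -0.05.

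The genes that rose were led by *CIK1*, which encodes the partner protein of the kinesin Kar3p and is needed to draw the nuclei of mating cells together. Its signals were 1131, 1122 and 879 in wild-type and 1196, 836 and 1297 in *top1Δ*. They were 3814, 2904 and 3173 in *top2ts*, against 1755, 1413 and 1491 in *top1Δtop2ts*. The *top2ts* arrays were far above all others, and those of *top1Δtop2ts* lay between them and wild-type without overlap with either. The change in *top2ts* was 1.66 ± 0.39 (SE, n = 3 arrays per strain, limma adjusted p = 0.00400), with 1.75, 1.37 and 1.85 in the 3 same-numbered pairs.

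*PRM6*, which encodes a pheromone-regulated membrane protein involved in potassium transport, had signals of 1541, 1465 and 1367 in wild-type and 6205, 3531 and 4032 in *top2ts*. In *top1Δ* they were 1262, 1159 and 1443, and in *top1Δtop2ts* 1536, 1217 and 1180.0. Only the *top2ts* arrays stood apart, and the other 3 strains overlapped. The change of 1.61 in *top2ts* passed with limma (adjusted p = 0.00630), and the pairs gave 2.01, 1.27 and 1.56. Both calls were lost when wild-type replicate 3 was left out, where the adjusted p was 0.127 for *CIK1* and 0.108 for *PRM6*, and that of *PRM6* also without *top2ts* replicate 1 (adjusted p = 0.0648).

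The karyogamy genes, which serve the joining of the 2 nuclei, had a median change of 0.98 in *top2ts*, with 6 of 6 positive. *KAR4* encodes a regulator that acts with Ste12p on the late genes of nuclear fusion, and its signals of 13128, 6826 and 11554 in *top2ts* all exceeded the 4987, 4906 and 4099 of wild-type. Its change of 1.12 had an adjusted p of 0.264 with limma and of 0.00114 with the replicate block. *PRM2* and *PRM3*, which encode membrane proteins needed for nuclear fusion, had changes of 1.02 and 0.93, and *KAR5*, which encodes a protein of the nuclear envelope that acts in the fusion step, one of 0.63. All 3 lay above wild-type on every *top2ts* array and passed with the block (adjusted p = 0.00454, 0.00357 and 0.0191) and with equal medians, but not on the deposited scale without a block. *KAR3*, the gene of the kinesin motor, had signals of 2026, 1596 and 1791 in wild-type and 3064, 1967 and 2496 in *top2ts*, which overlapped, and its change of 0.46 passed with equal medians alone (adjusted p = 0.0398).

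Among the 6 genes of cell fusion and the cell surface, *FUS2*, which encodes a protein that acts at the zone of cell fusion, was highest in *top2ts* relative to wild-type. Its signals were 2648, 2890.1 and 1960.2 in wild-type and 7885, 3916 and 6569 in *top2ts*, with no overlap and a change of 1.25 (limma adjusted p = 0.128, with the block 0.00114). *FUS1*, the membrane protein gene often used as a reporter of the pathway, had 4638, 5981 and 4220.3 in wild-type and 11078, 6008 and 9860.0 in *top2ts*. The lowest *top2ts* array was only just above the highest wild-type array, which was replicate 2 in both strains, and the change was 0.83 (with the block, adjusted p = 0.0191). *FIG1*, which encodes a membrane protein for calcium entry during mating, and *PRM1*, which encodes a protein of plasma membrane fusion, had changes of 0.66 and 0.70 that also passed with the block. *FIG1* did not pass with equal medians (limma adjusted p = 0.0953), and *PRM1* overlapped with wild-type through replicate 2.

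The other genes of the cell surface did not follow. *AGA1*, which encodes the anchor subunit of **a**-agglutinin, had the brightest probe set of the 34 in wild-type, at 18515, 16240.1 and 15521, and gave 20636, 10144 and 18838 in *top2ts*. *FIG2*, which encodes a cell wall adhesin of mating cells, gave 13667, 11432 and 12577 in wild-type, against 16009.7, 8206 and 15714 in *top2ts*. Both genes overlapped between the strains, and their changes of -0.08 and 0.02 passed under none of the 3 fits, where that of *AGA1* turned to 0.16 with equal medians.

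Of the other pheromone-regulated membrane proteins, *PRM4* had signals of 3477, 5031 and 3086 in wild-type and 11096, 7752 and 10562 in *top2ts*. The groups did not overlap, and the change of 1.36 missed the threshold on the deposited scale (limma adjusted p = 0.0589) and passed with the block (adjusted p = 0.000654). *PRM8* had a change of 0.83 with all arrays above wild-type, and passed with the block (adjusted p = 0.00426). *PRM5*, a gene that cell wall stress also induces, had signals of 7645, 5851 and 7054 in wild-type and 10120.2, 5087 and 9418 in *top2ts*, which overlapped. Its change of 0.21 and that of *PRM10*, 0.02, passed in none of the 3 fits. The targets thus ran from -0.08 to 1.66.

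**Figure D2:**
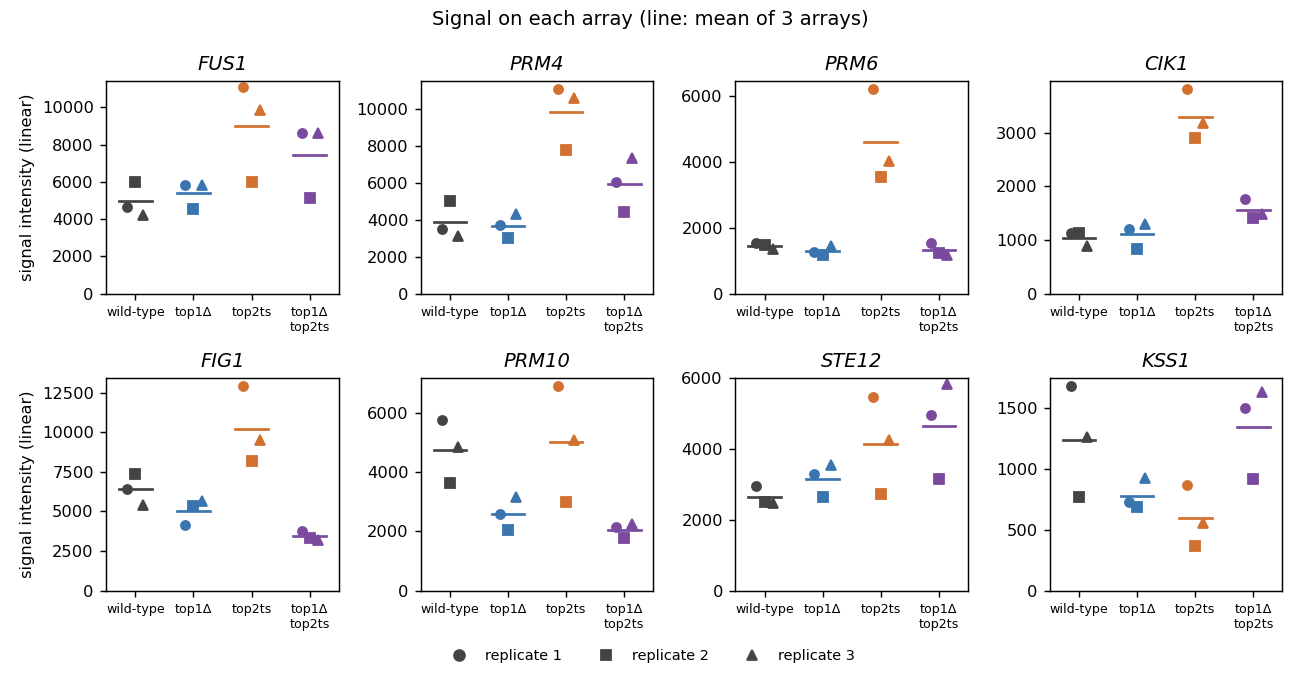
Signal on each of the 12 arrays (linear axis from 0, 1 point per array with a marker for each replicate, and a line at the mean of each strain) of *FUS1*, *PRM4*, *PRM6*, *CIK1*, *FIG1*, *PRM10*, *STE12* and *KSS1*. The 3 *top2ts* arrays lie above every wild-type array for *FUS1*, *PRM4*, *PRM6*, *CIK1* and *FIG1*, and the 3 *top1Δtop2ts* arrays lie below every wild-type array for *FIG1* and *PRM10* and above every one for *STE12* and *CIK1*.

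The signalling genes are given in the order of the pathway. The receptor gene *STE2*, listed among the other pathway genes, had a change of 0.08. *GPA1*, *STE4* and *STE18*, the 3 G protein subunits, had changes of 0.12, -0.13 and 0.01, and *SST2*, which encodes the protein that speeds GTP hydrolysis by Gpa1p and so damps the signal, had 0.28. Only *SST2* of these 4 passed on any of the 3 scales, with equal medians (0.52, limma adjusted p = 0.0450).

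In the cascade, *STE20*, *STE50*, the gene of the adaptor of Ste11p, *STE11*, *STE7* and *STE5* ran from -0.38 to -0.02 in *top2ts*, of which *STE5* and *STE20* turned positive with equal medians, and *FUS3* had 0.20. None of these 6 genes passed on the 3 scales. *MSG5*, which encodes a phosphatase that inactivates Fus3p, had signals of 3369.8, 2364 and 2914 in wild-type and 5269.9, 3364 and 4791 in *top2ts*, a change of 0.62 that passed with the block (limma adjusted p = 0.0111). *STE7*, *STE18* and *STE50* had the 3 dimmest probe sets in wild-type, all far above the control probe sets. Their signals there were 831, 432 and 678 for *STE7*, 838, 444 and 745 for *STE18* and 859, 483 and 719.5 for *STE50*.

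*KSS1*, which encodes the second MAP kinase and is better known for filamentous growth, went the other way. Its signals were 1682, 769.9 and 1264 in wild-type and 733, 689 and 924 in *top1Δ*. They were 872, 369.8 and 555 in *top2ts*, against 1505, 916 and 1631 in *top1Δtop2ts*. Within each replicate number both single mutants were below wild-type, whereas the double mutant was below wild-type in replicate 1 and above it in replicates 2 and 3. The change in *top2ts* of -1.06 missed the threshold on the deposited scale (limma adjusted p = 0.366) and passed with the block (adjusted p = 0.00252) and with equal medians (adjusted p = 0.00140), and it was the lowest of the 34 genes there.

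*STE12*, the transcription factor gene, had signals of 2965, 2511 and 2492 in wild-type and 3302, 2644 and 3566 in *top1Δ*. They were 5466, 2737 and 4268 in *top2ts*, against 4965, 3158 and 5839.5 in *top1Δtop2ts*. Every array of *top1Δtop2ts* was above wild-type, while replicate 2 of *top2ts* overlapped with it. The change in *top2ts* was 0.59 and passed with the block (limma adjusted p = 0.0454). That in *top1Δtop2ts* was 0.77, the highest of the 34 genes in that strain, with an adjusted p of 0.147 on the deposited scale, 0.00137 with the block and 5.31e-05 with equal medians.

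Of the polarity and arrest genes, *FAR1* had signals of 2217, 2162 and 1805 in wild-type and 4561, 3338 and 3624 in *top2ts*, without overlap. Its change of 0.89 passed with the block (limma adjusted p = 0.00387). *BEM1*, the gene of a polarity scaffold, *CDC24*, that of the exchange factor of Cdc42p, and *CDC42*, that of the polarity GTPase, had changes of -0.41, -0.11 and -0.17 and passed on none of the 3 scales.

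In *top1Δ* the 34 genes stayed close to the rest. The median change was -0.12 for the targets and -0.08 for the signalling genes, against -0.17 for all genes. limma called 0 of the 34 genes higher or lower on the deposited scale, against 0.0551% and 0.936% of all genes. An unadjusted p under 0.05 was found for 1 of the 34 genes and for 335 of all 5449. With the block 0 were called higher and 2 lower (background 0.569% and 12.4%), and with equal medians likewise 0 and 2 (background 3.03% and 6.35%). These shares of members are near or under the background.

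The gene called lower in both was *PRM10*, with signals of 5763, 3642 and 4856 in wild-type and 2587, 2037 and 3158 in *top1Δ*. They were 6919, 3011 and 5092 in *top2ts*, against 2151, 1769 and 2259.8 in *top1Δtop2ts*. All arrays of both strains without *TOP1* lay below all wild-type arrays, and those of *top2ts* overlapped with wild-type. The change in *top1Δ* was -0.87 (limma adjusted p = 0.633, with the block 0.00365), and that in *top1Δtop2ts* was -1.19 (limma adjusted p = 0.0228). The latter call was lost without wild-type replicate 1, wild-type replicate 3 or *top1Δtop2ts* replicate 2, where the adjusted p was 0.161, 0.121 and 0.0950.

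The other calls in *top1Δ* were *MSG5* with the block (-0.60, limma adjusted p = 0.00956), with every *top1Δ* array below wild-type, and *KSS1* with equal medians (-0.41, adjusted p = 0.0490). All *top1Δ* arrays lay below all wild-type arrays for 2 of the 34 genes, *PRM10* and *MSG5*, and for 307 of all 5449 genes. The 3 highest changes in *top1Δ* were 0.36 for *PRM8*, 0.25 for *STE12* and 0.23 for *PRM1*, and none of them passed.

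In *top1Δtop2ts* 21 of the 34 genes had a negative change on the deposited scale, namely 13 of the 17 signalling genes and 8 of the 17 targets. The median change was 0.03 for the targets and -0.33 for the signalling genes, against -0.54 for all genes, and 28 of the 34 genes lay above the median gene. limma called 0 of the 34 higher and 1 lower, *PRM10*, on the deposited scale (background 1.25% and 15.1%). An unadjusted p under 0.05 was found for 4 of the 34 genes and for 1861 of all 5449. With the block 5 were higher and 11 lower (background 4.99% and 62.7%), and with equal medians 13 were higher and 2 lower (background 21.7% and 22.9%). Of the 34 genes, 13 had a positive change on the deposited scale and 28 with equal medians, so that the direction of many of these genes flips between the scales.

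Of the 34 genes, 7 passed both with the block and with equal medians. *STE12*, *STE18*, *PRM4*, *CIK1* and *FUS1* were higher than wild-type in both fits. *STE18*, the Gγ subunit gene, gave 1244, 680.1 and 1304 in *top1Δtop2ts* against 838, 444 and 745 in wild-type, which overlapped through replicate 2, with a change of 0.67 (limma adjusted p = 0.211, with the block 0.00237). *PRM4* had a change of 0.62, *CIK1* 0.58 and *FUS1* 0.57, of which only *CIK1* lay above wild-type on every array. With arrays scaled to the spike-ins, *STE12* and *STE18* passed (limma adjusted p = 0.00624 and 0.0121). *PRM4*, *CIK1* and *FUS1* did not pass in that fit (limma adjusted p = 0.0733, 0.085 and 0.0711).

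*PRM10* and *CDC42* were lower in both fits. *CDC42* had signals of 8157, 4755 and 6546 in wild-type and 4388, 2562 and 3629.6 in *top1Δtop2ts*, without overlap, and a change of -0.88 (limma adjusted p = 0.0984, with the block 0.000103, with equal medians 0.00890). *FIG1*, at -0.89, and *KAR3*, at -0.82, were also below wild-type on every array but did not pass with equal medians, where their changes were -0.36 and -0.29. All arrays of *top1Δtop2ts* lay below all wild-type arrays for 8 of the 34 genes and for 1565 of all 5449 genes. The 8 were *PRM10*, *CDC42*, *FIG1*, *KAR3*, *PRM3*, *SST2*, *MSG5* and *FIG2*.

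The contrast between *top1Δtop2ts* and *top2ts* asks what the further loss of Top1p adds, and it shares its *top2ts* arrays with the comparison above, so that these comparisons are not independent. The median was -0.98 for the targets, -0.20 for the signalling genes and -0.32 for all genes, and 17 of 17 targets were lower in the double mutant. limma called 1 of the 34 genes higher and 6 lower (background 2.09% and 6.74%). With the block 2 were higher and 18 lower (background 8.50% and 41.3%), and with equal medians 4 were higher and 12 lower (background 20.7% and 24.4%). All arrays of the double mutant lay below all *top2ts* arrays for 11 targets, including all 6 karyogamy genes. The same held for 15 of the 34 genes and for 765 of all 5449 genes.

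The genes that fell were *PRM6* (-1.77, limma adjusted p = 0.000300), *FIG1* (-1.55, adjusted p = 0.00260), *PRM3* (-1.29, adjusted p = 0.0174), *KAR3* (-1.28, adjusted p = 0.0187), *PRM10* (-1.21, adjusted p = 0.0299) and *PRM2* (-1.13, adjusted p = 0.0453). *FIG1* had signals of 6424, 7391 and 5388 in wild-type and 4137, 5331 and 5643 in *top1Δ*. They were 12919, 8174 and 9539 in *top2ts*, against 3796, 3342 and 3169 in *top1Δtop2ts*. It was above all wild-type arrays in *top2ts* and below all of them in the double mutant. *PRM3* gave 7663, 6126 and 7941 in *top2ts* and 2999, 2895 and 2945 in the double mutant, and *KAR3* gave 993, 937 and 1136 in the double mutant, in both cases below all wild-type arrays as well. *FUS1*, *PRM1*, *PRM5*, *PRM8*, *AGA1* and *FIG2*, by contrast, overlapped between these strains. *KSS1* was the gene called higher, at 1.22 (adjusted p = 0.0282). *PRM6* and *FIG1* passed in all 23 alternatives, while the calls of *PRM3*, *KAR3*, *PRM10*, *PRM2* and *KSS1* were each lost without *top2ts* replicate 3 and without at least 1 other array, with adjusted p of up to 0.262.

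The departure of *top1Δtop2ts* from the sum of the single mutants was tested as an interaction, with a standard error of 0.55. Its median was -0.74 for the targets, 16 of which were negative, -0.07 for the signalling genes and -0.17 for all genes. limma called 1 of the 34 genes higher and 0 lower than the sum (background 1.65% and 0.679%). An unadjusted p under 0.05 was found for 7 of the 34 genes and for 490 of all 5449. With the block 1 was higher and 10 lower (background 9.21% and 14.0%), and with equal medians 2 were higher and 5 lower (background 14.4% and 15.9%).

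The gene above the sum was *KSS1*, at 1.82 (limma adjusted p = 0.0462, with the block 0.000193), which was lower in each single mutant and at 0.15 in the double mutant. On the deposited scale the call was lost when any 1 array was left out other than wild-type replicate 2, *top2ts* replicate 1 or *top1Δtop2ts* replicate 2, with an adjusted p of up to 0.224, without wild-type replicate 1. The lowest departure was that of *PRM6*, at -1.59 (adjusted p = 0.121, with the block 0.000194), followed by *KAR3* at -1.21, *FIG1* at -1.20 and *CIK1* at -1.16, which passed with the block as well.

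Signalling genes and targets were also set against each other, in 2 ways that both leave out the brightness of an array and that gave different directions for the double mutant. The median of the gene-wise changes of the targets minus that of the signalling genes was 0.88 in *top2ts*, with 1.09, 0.50 and 1.19 in the 3 same-numbered pairs. It was 0.36 in *top1Δtop2ts*, with 0.40, 0.04 and 0.25, and -0.05 in *top1Δ*, with 0.20, -0.33 and 0.19. By this measure the difference was positive in 3 of 3 pairs for *top2ts* and for the double mutant, and changed sign between pairs in *top1Δ*. The median log2 level of the targets minus that of the signalling genes on the same array was 0.94, 1.77 and 1.17 in wild-type and 1.70, 1.47 and 2.16 in *top2ts*. The *top1Δ* arrays gave 1.17, 1.19 and 1.00, and those of *top1Δtop2ts* gave 1.21, 1.04 and 0.96. By this measure *top2ts* overlapped with wild-type and was below it in pair 2, and the double mutant was above wild-type in pair 1 and below it in pairs 2 and 3. Pair 2 gave the lowest gene-wise difference each time, and it holds the wild-type array on which the targets stood highest, with a median log2 signal of 2.40 above the median gene, against 1.40 and 1.61 on the other wild-type arrays. In *top2ts* the same measure was 2.65, 2.84 and 3.03, above every array of the other strains, which reached 2.45. For the signalling genes it was 0.46, 0.62 and 0.43 in wild-type and 0.95, 1.37 and 0.86 in *top2ts*, also without overlap between these strains, and up to 1.41 in *top1Δtop2ts*.

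**Figure D3:**
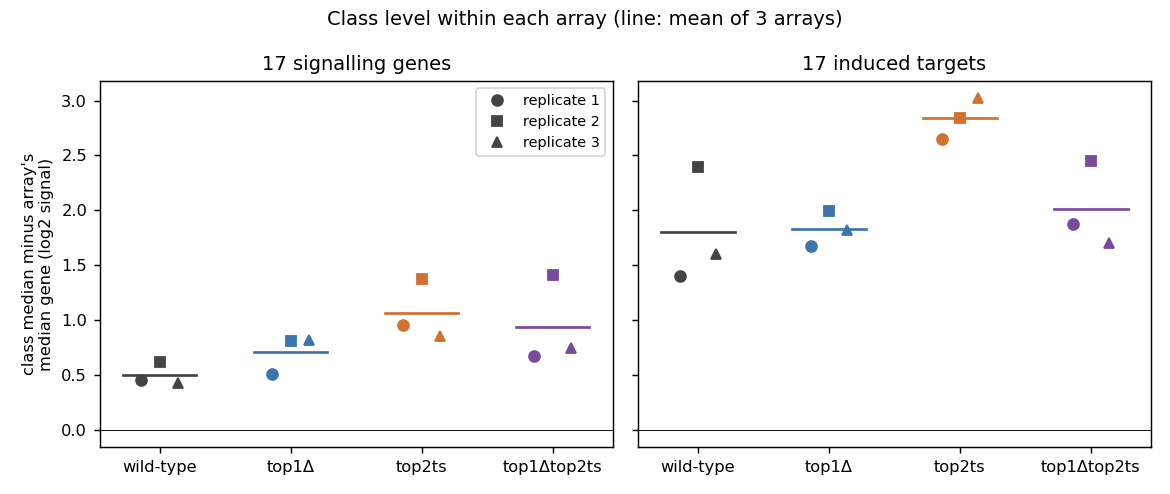
Median log2 signal of the 17 induced targets and of the 17 signalling genes above the median gene of the same array, for each of the 12 arrays by strain, with a marker for each replicate and a line at the mean of 3 arrays. The targets of *top2ts* lie between 2.65 and 3.03 above the median gene, over the highest array of the other strains at 2.45, while their replicate 2 arrays stand highest in wild-type, in *top1Δ* and in *top1Δtop2ts*.

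Another 24 genes of the pathway, from the receptors and the repressors of Ste12p to proteins of polarised growth, were taken as a further list. It also held *PRM7* and *PRM9*, further genes of pheromone-regulated membrane proteins, with changes of -0.145 and -0.540 in *top2ts*. In that strain the median change of the 24 genes was -0.23, close to the -0.22 of all genes, with 4 positive and 20 negative. There limma called 0 of 24 on the deposited scale, where 1 had an unadjusted p under 0.05. With the block 1 was called higher, *GIC2*, which encodes an effector of Cdc42p (0.88, adjusted p = 0.00354), and 1 lower, *DIG2*, which encodes a repressor of Ste12p (-0.52, adjusted p = 0.0302). Of all genes, 1.12% were called higher and 9.08% lower in that fit. With equal medians 2 of 24 were higher and 0 lower (background 3.34% and 2.77%). These were *GIC2* (1.12, limma adjusted p = 0.00235) and *AFR1* (0.66, adjusted p = 0.00723), while *DIG2* did not pass (-0.28, adjusted p = 0.336). In *top1Δ* 0 of 24 were called on the deposited scale, and 2 had an unadjusted p under 0.05. With the block 0 of 24 were higher and 6 lower there (background 0.569% and 12.4%). With equal medians 0 were higher and 2 lower (background 3.03% and 6.35%). The 2 called lower with equal medians were *STE3* (-0.98, limma adjusted p = 0.00337) and *AFR1* (-0.60, adjusted p = 0.00982). In *top1Δtop2ts* the median was -0.67, and 0 rose and 3 fell, a share under the 15.1% of all genes called lower. These were *SPA2* (-1.18, adjusted p = 0.0238) and *PEA2* (-1.12, adjusted p = 0.0344), which encode parts of the polarisome that organises growth at the tip, and *DIG2* (-1.10, adjusted p = 0.0366).

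The genes of mating type and of the cell cycle were measured beside these changes. Of the 7 **a**-specific genes, limma called 0 in any mutant on the deposited scale, and only *ASG7* in *top2ts* had an unadjusted p under 0.05. Their summed signals were 43324 to 81184 in *top2ts* and 39163 to 66094 in *top1Δtop2ts*, ranges that overlap with wild-type. *BAR1*, which encodes the protease that degrades α-factor, had signals of 10171, 8979 and 9399.9 in wild-type and changes of -0.17 in *top1Δ*, 0.23 in *top2ts* and -0.10 in *top1Δtop2ts*. *ASG7*, an **a**-specific gene that pheromone also induces, had 1.11 in *top2ts* and passed there with the block (adjusted p = 0.00106). The 4 α-specific genes had sums of 967 to 1452 in *top2ts* and 1164 to 1674 in *top1Δtop2ts*. In the double mutant limma called 1 of the 4 higher and 0 lower on the deposited scale (background 1.25% and 15.1%). With the block 3 were higher (background 4.99%), and with equal medians also 3 (background 21.7%). Of these 4 genes, *MF(ALPHA)1* had signals of 126, 93.8 and 141 in the double mutant, all above wild-type. There 1 wild-type array was under the control level of 18.4, so no fold is given. Their part in the changes of the 34 genes was not tested.

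The 12 genes of late G1 and S phase, which a pheromone arrest keeps low, summed to 25851 to 48882 in wild-type, 20673 to 57261 in *top2ts* and 13275 to 22081 in *top1Δtop2ts*. Their median change was -0.04 in *top1Δ* and -0.11 in *top2ts*, and limma called 0 of 12 in either strain, with 0 at an unadjusted p under 0.05. In the double mutant 7 of 12 fell, among them the cyclin genes *PCL1* (-3.94), *CLN2* (-1.99) and *CLN1* (-1.68), with a median of -1.30 against -0.54 for all genes. Of 5 genes of G2 and M phase, 0 were called in *top2ts*, where 2 had an unadjusted p under 0.05, 1 fell in *top1Δ* and 4 fell in *top1Δtop2ts*, with sums of 2343 to 5498 in wild-type, 1707 to 2873 in *top1Δ*, 1381 to 4139 in *top2ts* and 794 to 1324 in the double mutant. Of 6 genes of the M to G1 transition 1 fell in each strain, *ASH1* in *top1Δ* (-1.42) and in *top1Δtop2ts* (-2.51) and *DSE1* in *top2ts* (-1.43). Of all genes, 0.936% were called lower in *top1Δ*, 0.532% in *top2ts* and 15.1% in *top1Δtop2ts*. With the block, which called most of the higher targets of *top2ts*, 1 of the 12 late G1 and S phase genes in that strain was called lower, *CLN1* (-0.67, adjusted p = 0.0313), and 2 of the 5 genes of G2 and M phase. The share of all genes called lower in that fit was 9.08%. Whether the cell-cycle state has a part in the levels of the 34 genes was not tested.

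**Figure D4:**
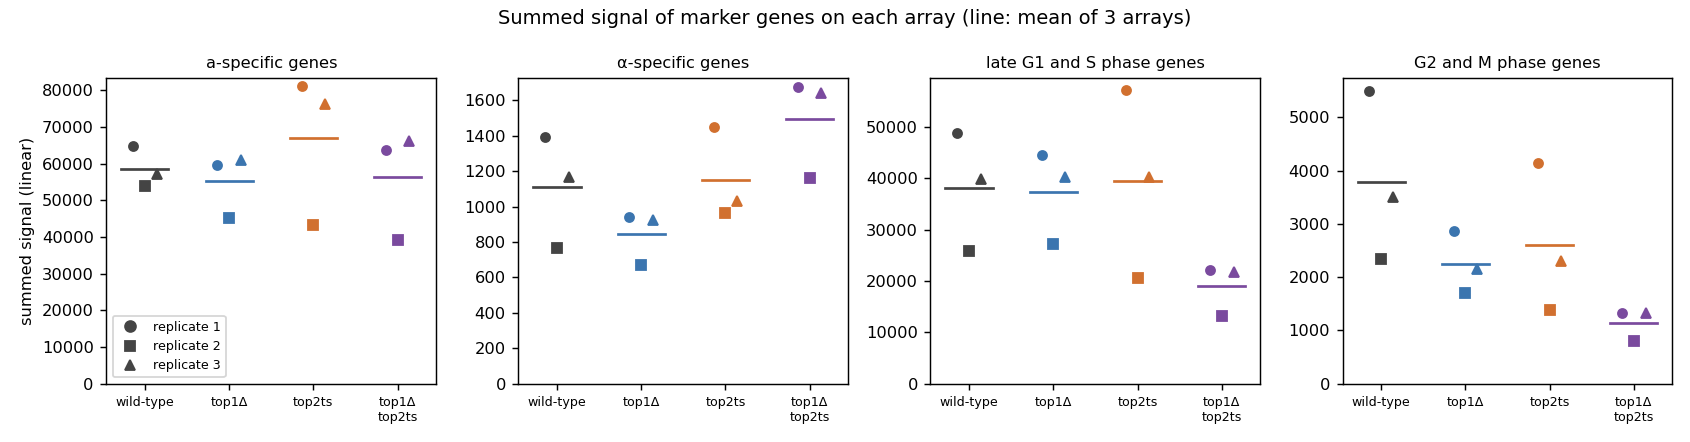
Summed signal of the **a**-specific, the α-specific, the late G1 and S phase and the G2 and M phase genes on each of the 12 arrays by strain, with a line at the mean of 3 arrays. The late G1 and S phase sums of *top1Δtop2ts*, 13275 to 22081, lie below the 25851 of the lowest wild-type array, while the **a**-specific sums of all strains overlap.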

How the data were processed

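Total RNA (2 µg per array) of 3 biological replicates of each strain was hybridised to Affymetrix Yeast Genome 2.0 arrays. The authors made the deposited values with MAS5, as intensities on a linear scale, and added poly-A spike-in RNAs for an external normalization. Brightness still differed between the deposited arrays. The table held 10928 probe sets. The probe table names 1 *S. cerevisiae* gene for 5498 of them, and after averaging log2 values over the probe sets of a gene 5449 genes were left. The 4 values of 0 were set to 0.1, and dim genes were kept. The probe set of several genes and unpaired probe sets were left out. The number of arrays limits the precision.

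Log2 signals of the 12 arrays were fitted by strain with limma 3.58.1 in R 4.3.3, with 8 residual degrees of freedom and an estimated prior variance of 0.231. Tests were two-sided, with Benjamini-Hochberg adjustment over all genes and a threshold of 0.05. The replicate numbers were taken to mark the 3 independent sets of experiments that the methods describe, which the labels do not state. Deviations from the strain means correlated above 0.1 in 10 of 18 pairs of arrays that share a number. Pairs with different numbers were not counted, so this count does not decide whether the numbers pair the arrays. The fit without a block was the main one, and the replicate block is printed where it changes a call. Medians and summed signals were computed in Python 3.11.15 with numpy 2.4.6 and pandas 2.3.3. Only the fit without a block, for *top2ts* against wild-type, was tested on simulated data.

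The members and lists were chosen with earlier results of these data known. Named were genes that passed any test, the 3 highest and 3 lowest wild-type signals, and the 3 largest rises and falls in each mutant. Other genes came from lists of pathway, mating-type and cell-cycle genes, at most 4 of a list among those that passed with the largest change. The receptor *STE2*, *STE3*, *BAR1*, *ASG7*, *GIC2*, *AFR1*, *PRM7* and *PRM9* were added after their values were seen. The comparison of *top1Δtop2ts* with *top2ts* was likewise added later. Alternatives were the replicate block, quantile normalization, spike-in scaling, equal medians, an intensity trend, a pseudocount, a filter on dim genes, fits of 6 arrays, replicate 2 left out and each array left out. Promoter sequences were not used here.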

Additional observations from a re-analysis of the deposited data

Results flagged for a closer look

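*KSS1* differed between the genetic backgrounds. Its log2 signal in *top1Δtop2ts* lay 1.82 above the sum of the changes of *top1Δ* and *top2ts* in the interaction test (limma adjusted p = 0.0462). The deletion of *TOP1* went with a change of -0.60 in cells with wild-type Top2p and of 1.22 in *top2ts* cells. The direction of the departure was the same with equal medians, at 1.91, and with spike-in scaling, at 1.79. The call was kept in 12 of 22 alternatives, and among those in which it was lost the highest adjusted p was 0.224, without wild-type replicate 1.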

How the results depend on the processing

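For the 26 changes of single genes that were tracked through the alternatives, 490 of 597 values kept their direction and their side of the threshold, 46 fell below it, 61 passed it anew and 0 reversed. These 26 were picked as called members or as the 3 largest rises and falls of each mutant, so they do not stand for all 34 genes. Counts of calls among the 34 genes moved with the scale and the block, and all values here are limma calls, higher and lower together. In *top1Δ*, with 0 calls, there were 2 with equal medians, 2 with spike-in scaling, 3 with quantile normalization, 2 with the replicate block, 2 without the replicate 2 arrays and 3 with equal medians and the block together, and leaving out 1 array gave 0 each time. In *top2ts*, with 2, these were 17, 10, 17, 16, 12 and 19, and leaving out 1 array gave 0 (without wild-type replicate 3) to 4. In *top1Δtop2ts*, with 1, they were 15, 12, 18, 16, 12 and 16, with 2 under an intensity trend and 0 (without wild-type replicate 1) to 3 on leaving out 1 array. The split was 13 higher and 2 lower with equal medians, 2 and 10 with spike-in scaling, and 5 and 11 with the replicate block. For the departure, with 1, they were 7, 6, 6, 11, 10 and 13, with 0 under the trend and 0 to 1 on leaving out 1 array, and no fit of 6 arrays exists. For *top1Δtop2ts* against *top2ts*, with 7, they were 16, 20, 15, 20, 20 and 18, with 11 under the trend, 2 in the fit of 6 arrays and 2 (without *top2ts* replicate 3) to 10. Other genes turned sign between scales, such as *AGA1* in *top2ts*, at -0.08 and with equal medians 0.16. The changes that turned were not all near 0, as *MSG5* in *top1Δtop2ts* was at -0.49 and with equal medians at 0.04. Setting arrays to equal medians raised all changes of a comparison by the same amount, so changes below 0 by less than that amount turned sign. The cause of the differences in counts between fits was not tested. The gene-wise difference between targets and signalling genes kept within the spread between pairs, and leaving out 1 array gave -0.10 to 0.10 in *top1Δ*, 0.64 to 1.11 in *top2ts* and 0.21 to 0.46 in *top1Δtop2ts*. All 34 genes lay far above the Tag controls, so signal over background was not a limit for them.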

Other observations

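A list of 13 haploid-specific genes, which the a1/α2 repressor of diploid cells turns off and of which 7 are also among the 34 genes, was measured as well. In *top2ts* its median change was 0.01 and limma called 0 of 13, and in *top1Δ* the median was 0.08 with 0 of 13 called. In *top1Δtop2ts* 1 rose and 3 fell, against 1.25% and 15.1% of all genes. *DDC1*, which encodes a subunit of the checkpoint clamp, rose by 1.24 on the log2 scale (adjusted p = 0.0166). *RME1*, which encodes a repressor of meiosis, had -1.73 (adjusted p = 0.000409), *NEJ1*, a gene of DNA end joining, -1.17 (adjusted p = 0.0251) and *RDH54*, which encodes a translocase of recombination, -1.11 (adjusted p = 0.0345).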
